A study of Mus musculus with 8 samples.

Results

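The comparison of laminin-511 (LN511) with gelatin as the coating of the culture dish was made in 2i medium, in mouse embryonic stem cells. It held 4 of the 8 RNA-seq libraries of the series, which were grouped by sample title: 2 from cells on LN511 and 2 from cells on gelatin. All came from Bruce 4, a male wild-type embryonic stem cell line of the C57BL/6J strain. The cells were kept for 2 weeks on their coating and in their medium before RNA was taken, and the design text calls the 2 libraries of a group biological replicates. The other 4 libraries came from the same line on the same coatings in a medium called Std, whose composition the labels do not give. They lend their replicate spread to the test and are set beside 2i at the end. As all cells were of 1 line, nothing here speaks of other lines, and p-values measure the spread between these libraries.

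Laminins are heterotrimers of the basement membrane, and laminin-511 (chains alpha 5, beta 1 and gamma 1) is the one that surrounds the cells of the early embryo. Cells hold on to it mainly through integrin alpha 6 beta 1, and integrins pass adhesion on to actin through talin, integrin-linked kinase and focal adhesion kinase. Gelatin is denatured collagen, to which cells attach largely through fibronectin and other proteins that settle on it. The 2i medium holds an inhibitor of MEK, which stops ERK signalling, and an inhibitor of GSK3, which raises beta-catenin activity, and it keeps embryonic stem cells in the naive state that resembles the inner cell mass.

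Values are FPKM (fragments scaled by transcript length and library depth), added up over each gene's RefSeq transcripts, and differences are LN511 minus gelatin on the scale of log2(FPKM + 1), which understates the change of low genes. Of 23021 genes with a value, 11261 reached 1 FPKM in at least 2 libraries. Of these, 838 with 1 replicate and 131 with a whole group at 0 beside 5 FPKM or more were set aside, since such a 0 may be a failed estimate, and 10292 were tested. Steps between low values put the depths of the 4 libraries in 2i within 1.14-fold of one another. By an estimate that may be too high, 1 fragment on 1000 bases is worth 0.364 to 0.417 FPKM, so low values are coarse. Assembled transcripts that carry no RefSeq name, and are not used here, held 13.7% and 53.6% of all FPKM in the gelatin libraries and 58.4% and 37.1% in the LN511 libraries. Their part in the results was not tested. All 7 embryonic stem cell markers with a value were above 1 FPKM in the 4 libraries, with a summed level of 2212 and 2306 FPKM on gelatin and 2363 and 2593 FPKM on LN511. Fibroblast markers, which would show feeder cells, summed to 1.54 to 2.19 FPKM, and 7 of 8 were under 1 FPKM in all 4 libraries.

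Cells on the 2 coatings were close to each other in 2i medium. Between an LN511 and a gelatin library, the median gene differed by 0.27 to 0.31 (absolute log2 difference), against 0.22 between the gelatin replicates and 0.26 between the LN511 replicates. Libraries in 2i and in Std differed by 0.44 to 0.50. With 2 libraries against 2, an exact permutation test of a single gene cannot give a two-sided p below 0.333. The test was therefore limma, fitted over all 8 libraries, with p-values adjusted by the Benjamini-Hochberg method over all 10292 genes. It called 2 genes (0.0194% of those tested), Ccn1 and Prdx6, both higher on LN511, while 1234 genes had an unadjusted p under 0.05.

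Single tests therefore say little, and genes were ranked by size and by whether the replicates of the coatings overlap. The coatings did not overlap in 4421 genes (43.0%): both LN511 values lay above both gelatin values in 2288 (22.2%) and below them in 2133 (20.7%). Even without a coating effect, 2 against 2 libraries would fail to overlap with a probability of 0.333 for each gene. The 43.0% is therefore not the share of genes that respond to the coating. With a difference of at least 1.5-fold added, 641 genes were higher on LN511 (6.23%) and 726 lower (7.05%). At 2-fold these counts were 234 (2.27%) and 269 (2.61%), and at 4-fold 30 (0.291%) and 28 (0.272%). Most of the 4-fold genes held a 0 in a library in 2i. Among the 8769 tested genes without one, 97 were higher and 111 lower at 2-fold, and 4 and 3 at 4-fold. The split between higher and lower depends on scaling: with the library medians of the tested genes set equal, 828 genes were higher and 614 lower at 1.5-fold. The median difference over all genes was 0.00. As a measure of what stayed equal, the 95% interval of the difference lay within 1.5-fold in 2244 genes (21.8%) and within 2-fold in 5510 (53.5%).

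**Figure D1:**
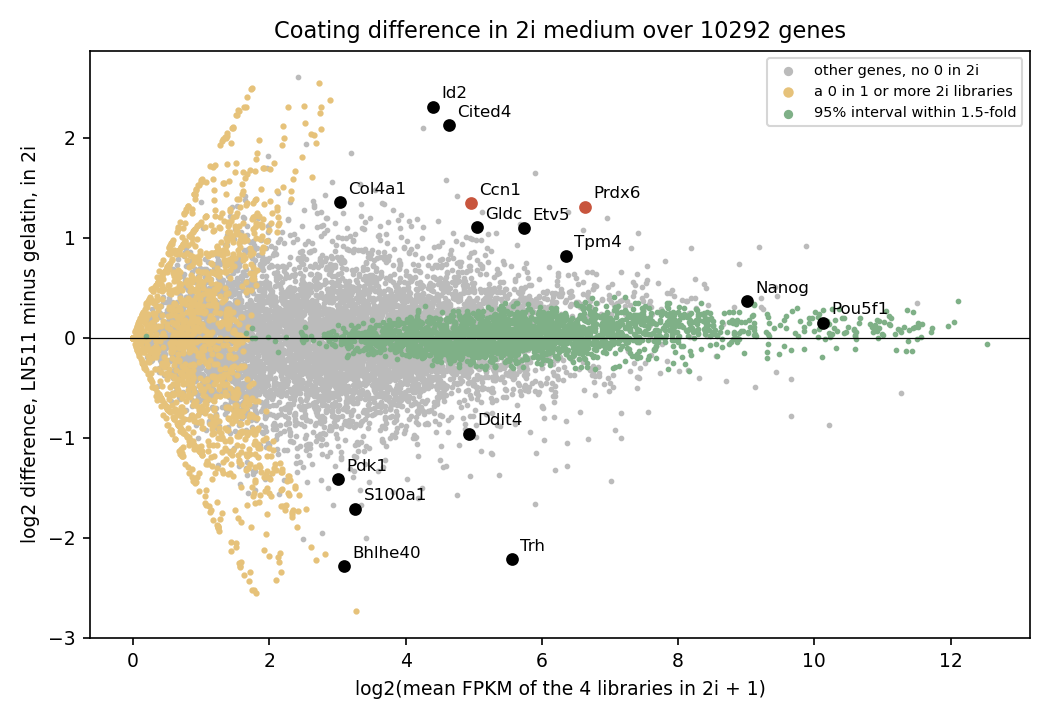
Log2 difference LN511 minus gelatin in 2i medium (vertical axis) against log2 of the mean FPKM + 1 of the 4 libraries in 2i (horizontal axis), 1 point for each of 10292 genes. Red points are the 2 called genes, black points other named genes, green points the 2244 genes whose 95% interval lies within 1.5-fold, and ochre points genes with a 0 in at least 1 library, which crowd at low levels and spread widest.

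Ccn1 encodes CYR61, a matricellular protein that binds integrins and is a textbook target of the co-activator YAP and of serum response factor (SRF). Ccn1 was at 16.9 and 16.1 FPKM on gelatin and at 43.01 and 44.03 FPKM on LN511. Both LN511 values were far above both gelatin values, and replicates lay close together. It rose by a log2 difference of 1.35 (SE 0.11, limma adjusted p = 0.0374). In Std medium the gene was at 11.3 and 10.4 FPKM on gelatin and 77.7 and 78.4 FPKM on LN511, a log2 difference of 2.74, and the interaction of coating and medium passed (limma adjusted p = 0.0415). The coating difference was thus smaller in 2i than in Std. The adjusted p in 2i ran from 0.0598 to 0.164 with a single library left out, and all 8 libraries lose the call in that way.

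The promoter of Ccn1 is shown because the gene is the most firmly separated member of the YAP and SRF list. The stretch is the 250 bases before the start of the gene, from RefSeq on GRCm38.p6, at chr3:145649986-145650235 on the minus strand and written 5′ to 3′ along the gene. Capitals mark a match to the TEAD motif GGAATG, here on the opposite strand, through which YAP acts on DNA.
Ccn1: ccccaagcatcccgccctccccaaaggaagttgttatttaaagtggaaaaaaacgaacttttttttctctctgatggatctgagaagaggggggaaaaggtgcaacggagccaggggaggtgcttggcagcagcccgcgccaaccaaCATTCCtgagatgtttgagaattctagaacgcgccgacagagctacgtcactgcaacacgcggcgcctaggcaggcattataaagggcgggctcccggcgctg
The match starts 103 bases before the gene's start, and neither the AP-1 motif TGANTCA nor the SRF CArG box, searched on both strands, is in this window. The same stretch of Id2, a gene higher on LN511 that is described below, was also searched and held none of these motifs. TEAD matches were in 6 of 12 promoters of the tested YAP and SRF targets, in 10.7% of the promoters of all tested genes and in 12.6% of all 32851 promoters of this length. The CArG box was in 3 of those 12 and in 1.47% of all promoters. A match describes letters and does not show a bound site. The list was written from known targets, with earlier results of these data known. These shares therefore describe the list and not its response to the coating.

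Prdx6, the other called gene, encodes peroxiredoxin 6, an enzyme that reduces peroxides, phospholipid peroxides among them. Prdx6 was at 58.97 and 53 FPKM on gelatin and at 128 and 154 FPKM on LN511, with no overlap. It rose by a log2 difference of 1.31 (SE 0.11, limma adjusted p = 0.0374), and leaving out 1 library moved that p between 0.0334 and 0.164. In Std medium both coatings were above the gelatin level in 2i, at 150.1 and 155 FPKM on gelatin and 194 and 202 FPKM on LN511, and the interaction did not pass (limma adjusted p = 0.0909). The value sums 3 RefSeq transcripts, and the genome holds the close copy Prdx6b and a pseudogene that could share reads.

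Another 17 genes shared the next adjusted p (0.0541), and 13 of them had no value of 0 in 2i. These 13 were named after their values were seen. With the test limited to the 6844 genes that reach 5 FPKM in 2 libraries, 17 genes were called, among them Ccn1, Prdx6 and all 13. That setting favours them: each of the 13 was called under 3 to 6 of 18 to 20 alternatives, with limma adjusted p up to 0.316. With 1 library left out, Trh and Bex1 were called at least once, and the lowest adjusted p of the other 11 was 0.0703. Of the 13, 8 were higher on LN511. Id2, an inhibitor of basic helix-loop-helix factors, was at 7.52 and 4.84 FPKM on gelatin and 33.6 and 34.4 FPKM on LN511, the largest difference of the 8 (log2 2.31, SE 0.28). Etv5, an ETS factor that ERK signalling maintains, was at 32.4 and 33.4 FPKM on gelatin and 71.7 and 71.5 FPKM on LN511 (log2 1.10). Gldc, the glycine decarboxylase that feeds one-carbon metabolism, was at 21.3 and 18.8 FPKM on gelatin and 44.4 and 43.8 FPKM on LN511 (log2 1.10). In all 3 genes the gelatin values were low and the LN511 values high in both libraries.

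Tpm4, which encodes an actin-binding tropomyosin, was at 57.8 and 57.97 FPKM on gelatin and 103 and 103 FPKM on LN511 (log2 0.82, SE 0.09). Gsto1, a glutathione transferase of the omega class, was at 209 and 197 FPKM on gelatin and 360.1 and 401 FPKM on LN511. Ddah1, which breaks down methylated arginines, was at 13.1 and 12.3 FPKM on gelatin and 31.6 and 27.98 FPKM on LN511. Replicates lay close together in these 3 genes. Basp1, a membrane protein that binds cytoskeletal partners, was at 31.2 and 35.2 FPKM on gelatin and 60.6 and 67.3 FPKM on LN511. Bex1, an X-linked gene of the brain-expressed family, was at 365 and 345 FPKM on gelatin and 549.7 and 641 FPKM on LN511. Its near copy Bex2 was among the genes set aside, at 38.3 and 35.8 FPKM on gelatin and listed at 0 in both LN511 libraries, and reads of so similar a pair cannot be assigned with certainty.

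The 5 that were lower on LN511 had Bhlhe40 in front, a transcription repressor of the circadian clock that hypoxia induces. Bhlhe40 was at 12.8 and 13.6 FPKM on gelatin and at 1.67 and 2.18 FPKM on LN511, a log2 difference of -2.28 (SE 0.22). Trh, the thyrotropin-releasing hormone precursor, was at 82.9 and 69.1 FPKM on gelatin and 12 and 20.04 FPKM on LN511 (log2 -2.21). Neat1, the long noncoding RNA of nuclear paraspeckles, was at 30.5 and 23.3 FPKM on gelatin and 8.17 and 9.45 FPKM on LN511. Gelatin libraries were the high ones in each, by well over the gap between replicates. Pdk1 and Ddit4, the remaining members, are described below with the hypoxia list.

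**Figure D2:**
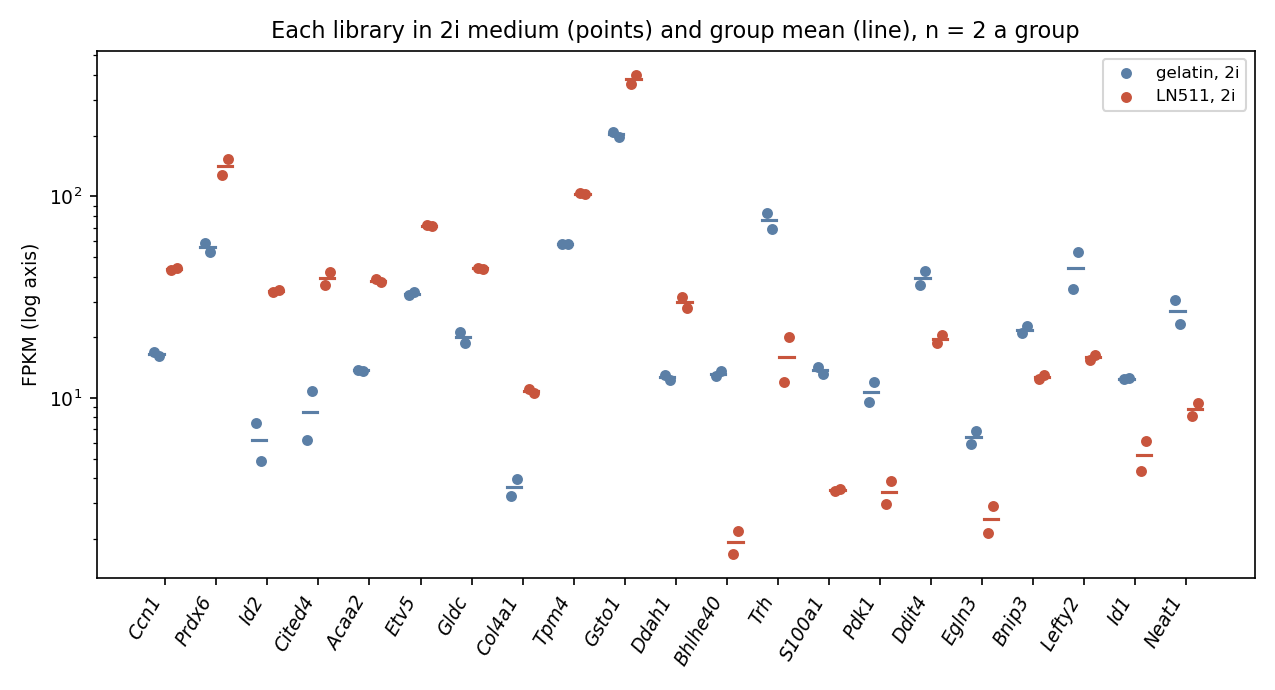
FPKM on a log axis of 21 named genes (horizontal axis) in the 4 libraries in 2i medium, gelatin in blue and LN511 in red, with a line at each group's mean (n = 2 libraries a group). Ccn1 and Id2 lie higher on LN511 and Bhlhe40 and Trh lower, with no overlap of the coatings in any of the 21 genes.

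Ranked by size alone, the extremes were less firm. Of the 20 highest and 20 lowest differences among non-overlapping genes whose higher coating averaged at least 5 FPKM, 14 and 15 had a 0 in a library. A second ranking left such genes out, a choice made after seeing the data. Even there, replicates of a group lay more than 2-fold apart in 12 of the 20 highest and 11 of the 20 lowest. Cited4, a co-activator that binds CBP and p300, was among the highest, at 6.20 and 10.8 FPKM on gelatin and 36.5 and 42.1 FPKM on LN511 (log2 2.12, SE 0.35). Acaa2, the mitochondrial thiolase that ends fatty acid oxidation, was at 13.8 and 13.6 FPKM on gelatin and 38.8 and 37.7 FPKM on LN511 (log2 1.42), and Afap1l1, an actin-filament-associated gene, was at 0.336 and 1.25 FPKM on gelatin and 4.54 and 5.71 FPKM on LN511. These 3 separate clearly, although the low Afap1l1 values on gelatin are close to the worth of a few fragments.

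Zfp672 headed the highest at 0.826 and 0.202 FPKM on gelatin and 9.97 and 6.38 FPKM on LN511, summed over 8 transcripts, and its SE of 0.64 was large. Among the lowest, S100a1, a calcium-binding protein, was at 14.2 and 13.2 FPKM on gelatin and 3.45 and 3.52 FPKM on LN511 (log2 -1.71). Rara, the retinoic acid receptor alpha, was at 7.89 and 8.05 FPKM on gelatin and 0.657 and 1.97 FPKM on LN511 (log2 -2.02), and Abcc1, an efflux transporter, at 9.61 and 9.89 FPKM on gelatin and 2.87 and 2.71 FPKM on LN511 (log2 -1.51). In S100a1 and Abcc1 the replicates of both coatings were close together. None of these passed the test (limma adjusted p = 0.179 for Abcc1, 0.155 for S100a1, 0.128 for Rara).

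Genes of adhesion, actin and mechanical signalling were more often higher on LN511 than lower. These and the other gene lists were chosen with earlier results of these data known, so their counts describe and do not test. Of 14 tested YAP and SRF targets, 7 were higher on LN511 without overlap and 1 was lower, with a median log2 difference of 0.34 (0.30 to 0.67 over the alternative settings), against 22.2% and 20.7% of all genes and a median of 0.00. Such ranges leave out the deposited gene table, which holds few list members (7 of this list, median 0.20). Ccn1 alone was called. Ccn2, the connective tissue growth factor and a sister of Ccn1, was at 16.2 and 17.7 FPKM on gelatin and 34.7 and 29.5 FPKM on LN511 (log2 0.88, adjusted p = 0.197). Srf itself was at 10.9 and 10.9 FPKM on gelatin and 15.4 and 16.7 FPKM on LN511. Both genes were higher in each LN511 library. Ajuba, a LIM protein of junctions that restrains the Hippo kinases, was at 42.9 and 44.8 FPKM on gelatin and 51.4 and 64.6 FPKM on LN511. Ptpn14, a phosphatase that binds YAP, was at 3.90 and 3.95 FPKM on gelatin and 8.65 and 6.90 FPKM on LN511. Vcl, the gene of vinculin, was the lower member, at 19.8 and 19.9 FPKM on gelatin and 19.7 and 17.4 FPKM on LN511, and was held within 1.5-fold. Lats2, a Hippo kinase gene induced by YAP, had overlapping replicates and a log2 difference of -0.59. Of the list's 21 members, 14 were tested; Tead1 and Acta2 were among the genes set aside.

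Of 39 tested focal adhesion and actin genes, 20 were higher on LN511 without overlap and 8 lower, against 22.2% and 20.7% of all genes, with a median of 0.19. Within 1.5-fold 18 genes were held, against 21.8% of all genes. Abundant genes have narrower intervals, so here and in the lists below that share is not a like comparison. Tln1, the gene of talin, which ties integrins to actin, was at 32.8 and 11.6 FPKM on gelatin and 44.4 and 40.97 FPKM on LN511 (log2 1.08, SE 0.55), with the gelatin replicates far apart. Csrp1, a LIM protein of actin bundles, was at 33.96 and 50.2 FPKM on gelatin and 63.1 and 68.6 FPKM on LN511. The beta and gamma actins Actb and Actg1 had log2 differences of 0.18 and 0.29, and Pfn1 and Cfl1, the profilin and cofilin genes that drive actin turnover, had 0.30 and 0.27; all 4 were higher in both LN511 libraries and were held within 1.5-fold. Tagln2, an actin-bundling transgelin, went the other way, at 89.2 and 85.9 FPKM on gelatin and 54.6 and 56.8 FPKM on LN511 (log2 -0.64). Flna, the filamin A gene, was at 62.9 and 67.6 FPKM on gelatin and 56.6 and 52.8 FPKM on LN511. Ptk2, which encodes focal adhesion kinase, had overlapping replicates and a log2 difference of -0.34, and Ilk, the integrin-linked kinase gene, 0.22 without overlap.

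Few receptors for laminin differed by much. Of 14 tested laminin receptor and integrin genes, 5 were higher and 4 lower without overlap (22.2% and 20.7% of all genes), 5 were held within 1.5-fold (21.8% of all genes), and the median was 0.13. Itga6, the alpha 6 chain of the main receptor for LN511, was at 29.3 and 27.8 FPKM on gelatin and 27.7 and 27.1 FPKM on LN511, with a 95% interval of -0.31 to 0.20. Bcam, the Lutheran glycoprotein that binds laminin alpha 5, was at 141 and 141 FPKM on gelatin and 161 and 171 FPKM on LN511 and was also held within 1.5-fold. Dag1, the dystroglycan gene, was at 44.2 and 34.8 FPKM on gelatin and 49.7 and 44.5 FPKM on LN511. Itga7, another laminin-binding chain, stayed at or under 1.14 FPKM. Itga5, the alpha chain of the fibronectin receptor, was the member with the largest difference, at 32.4 and 29.6 FPKM on gelatin and 20.4 and 12.02 FPKM on LN511 (log2 -0.94, adjusted p = 0.421). Itgb1, the shared beta chain, was not analysed here, and Itga3 was set aside for its zeros.

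Genes of the matrix split. Of 22 tested basement membrane and matrix genes, 8 were higher on LN511 and 4 lower without overlap, against 22.2% and 20.7% of all genes, with a median of 0.00 that had either sign over the settings. Col4a1, a chain of the basement membrane collagen IV, was at 3.27 and 3.96 FPKM on gelatin and 11.03 and 10.5 FPKM on LN511 (log2 1.35, SE 0.19, adjusted p = 0.0746). Lama1, the alpha chain of laminin-111, was at 4.40 and 2.20 FPKM on gelatin and 6.94 and 7.08 FPKM on LN511, and Sparc, a collagen-binding matricellular protein, at 115 and 105 FPKM on gelatin and 165 and 185 FPKM on LN511 (log2 0.66, adjusted p = 0.071). All 3 were high in both LN511 libraries.

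Fn1, which encodes fibronectin, was the abundant member that was lower, at 233 and 235 FPKM on gelatin and 156 and 124 FPKM on LN511 (log2 -0.75, SE 0.14, adjusted p = 0.128), alongside the fibronectin receptor chain Itga5. Lamb1, a beta chain of laminin-511, was at 6.72 and 9.49 FPKM on gelatin and 3.83 and 5.15 FPKM on LN511, and Nid1, the nidogen that links laminin to collagen IV, at 83.7 and 83.95 FPKM on gelatin and 65.8 and 53.9 FPKM on LN511. The cells' own Lama5, the alpha chain of laminin-511, was at 42.2 and 41.5 FPKM on gelatin and 47.1 and 36.6 FPKM on LN511, with an interval of -0.49 to 0.47. Lamc1, its gamma chain, was at 129.6 and 75.2 FPKM on gelatin and 87.7 and 108 FPKM on LN511, with a spread between the gelatin replicates wider than the difference between coatings. Col4a1 and Lama1 are also primitive endoderm markers. The summed level of 9 such markers was 9.67 and 7.03 FPKM on gelatin and 19.09 and 20.25 FPKM on LN511. Most of each sum was Col4a1 and Lama1, so it largely repeats their difference. The other markers Gata4, Gata6, Sox17, Sox7, Pdgfra and Foxa2 were at or under 0.521 FPKM in all 4 libraries. The part of that cell type in the matrix values was not tested.

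Hypoxia genes were more often lower on LN511 than higher. Hypoxia-inducible factor (HIF) is destroyed in the presence of oxygen and otherwise switches cells to glycolysis and away from mitochondrial respiration. Of 16 tested HIF targets, 10 were lower on LN511 without overlap and 2 higher, against 20.7% and 22.2% of all genes, and the median log2 difference was -0.38, with a range of -0.74 to -0.33 over the alternative settings. No member was called. Pdk1, a kinase that inhibits pyruvate dehydrogenase, was at 9.54 and 11.98 FPKM on gelatin and 2.97 and 3.86 FPKM on LN511 (log2 -1.41, SE 0.17, limma adjusted p = 0.0541). Ddit4, an inhibitor of mTOR complex 1 also named REDD1, was at 36.2 and 42.4 FPKM on gelatin and 18.8 and 20.6 FPKM on LN511 (log2 -0.96, SE 0.11, limma adjusted p = 0.0541). Every LN511 value of these was below every gelatin value.

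Egln3, an oxygen-sensing hydroxylase that marks HIF for destruction and is induced by it, was at 5.91 and 6.88 FPKM on gelatin and 2.13 and 2.89 FPKM on LN511 (log2 -1.08). Bnip3, a mitophagy receptor, was at 20.9 and 22.7 FPKM on gelatin and 12.4 and 12.99 FPKM on LN511 (log2 -0.74), and Ndrg1, a stress-response gene, at 7.84 and 7.56 FPKM on gelatin and 3.92 and 3.70 FPKM on LN511 (log2 -0.86). Lower without overlap as well were Egln1, Ero1a, Hk2, Bnip3l and Kdm3a, with log2 differences of -0.45 to -0.20. The list was not uniform. Vegfa, the vascular growth factor, was at 13.1 and 7.93 FPKM on gelatin and 13.3 and 14.5 FPKM on LN511, and Hilpda, a lipid droplet protein, had a log2 difference of 0.31. The glucose transporter gene Slc2a1 was held within 1.5-fold, at 98.8 and 94.6 FPKM on gelatin and 87.4 and 101 FPKM on LN511.

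The promoters of 3 of the lower HIF targets are shown because HIF binds the core letters ACGTG or GCGTG, and the capitals mark such matches on either strand. They are the 250 bases before the start from RefSeq on GRCm38.p6, 5′ to 3′ along each gene: chr7:138909507-138909756 (minus strand), chr10:59951771-59952020 (minus strand) and chr2:71872974-71873223 (plus strand, the first of 2 starts in the table).
Bnip3: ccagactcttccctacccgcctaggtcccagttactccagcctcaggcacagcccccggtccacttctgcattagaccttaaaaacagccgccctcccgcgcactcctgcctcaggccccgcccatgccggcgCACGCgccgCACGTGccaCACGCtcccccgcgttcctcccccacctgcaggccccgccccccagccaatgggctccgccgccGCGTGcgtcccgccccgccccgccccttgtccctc
Ddit4: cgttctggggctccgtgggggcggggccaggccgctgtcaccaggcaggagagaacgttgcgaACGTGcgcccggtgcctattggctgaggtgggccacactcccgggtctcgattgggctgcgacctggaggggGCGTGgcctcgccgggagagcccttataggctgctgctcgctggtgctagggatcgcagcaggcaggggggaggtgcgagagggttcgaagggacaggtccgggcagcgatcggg
Pdk1: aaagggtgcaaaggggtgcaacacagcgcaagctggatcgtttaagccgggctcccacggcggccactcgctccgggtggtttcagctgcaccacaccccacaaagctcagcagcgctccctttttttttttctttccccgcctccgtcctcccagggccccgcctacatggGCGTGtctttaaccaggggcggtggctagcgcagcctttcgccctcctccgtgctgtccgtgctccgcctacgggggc
Bnip3 held 5 matches, of which the pair at positions -107 and -108 is 1 palindrome read on both strands. Ddit4 held ACGTG at -187 and GCGTG at -115, and Pdk1 GCGTG at -78. The second start of Pdk1, whose sequence is not shown, held no match. ACGTG was in 13 of 21 promoters of the tested HIF targets (61.9%), in 21.9% of the promoters of tested genes and in 16.6% of all promoters, and GCGTG in 52.4%, 45.5% and 28.2%. These motifs were added after the differences had been seen, and the list was written from known targets, so the share describes the list and not its response to the coating.

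Glycolysis shares Pdk1, Hk2 and Slc2a1 with that list. Of 21 tested glycolysis genes, 10 were lower on LN511 without overlap and 1 higher (20.7% and 22.2% of all genes), 10 were held within 1.5-fold (21.8% of all genes), and the median was -0.18. Slc16a3, the lactate exporter MCT4, was at 17.6 and 21.97 FPKM on gelatin and 11.4 and 8.21 FPKM on LN511 (log2 -0.95), and Ldhb, a lactate dehydrogenase, at 53.7 and 70.3 FPKM on gelatin and 37.7 and 29.5 FPKM on LN511 (log2 -0.86). Hk1, a hexokinase, was at 26.8 and 24.6 FPKM on gelatin and 12.6 and 4.69 FPKM on LN511, a large difference (log2 -1.60, SE 0.40) that rests on 2 transcripts and on LN511 replicates far apart. The abundant enzymes did not share it: Gapdh was at 2979.9 and 3042 FPKM on gelatin and 2883 and 3169 FPKM on LN511, with an interval of -0.13 to 0.14, and Eno1 at 1085 and 1208 FPKM on gelatin and 1221 and 1048 FPKM on LN511. Pkm, the pyruvate kinase gene, had a log2 difference of 0.92 with overlapping replicates.

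Genes of cholesterol and fatty acid synthesis were also more often lower on LN511, by small amounts. Of 22 tested genes, 14 were lower on LN511 without overlap and 1 higher (20.7% and 22.2% of all genes), 8 were held within 1.5-fold (21.8% of all genes), and the median was -0.18 (-0.27 to -0.12 over the alternative settings). Insig1, the sterol-sensing brake that SREBP induces, was at 50.9 and 51.5 FPKM on gelatin and 36.2 and 34.4 FPKM on LN511 (log2 -0.53). Scd1, a fatty acid desaturase, was at 42.3 and 47.6 FPKM on gelatin and 32.4 and 28.9 FPKM on LN511 (log2 -0.54). Gelatin libraries were the higher ones in both, as they were in Lss, lanosterol synthase (log2 -0.63). Fasn, the fatty acid synthase, was the higher member at 88.6 and 76.2 FPKM on LN511, against 35.1 and 70.7 FPKM on gelatin, where the replicates were 2-fold apart.

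**Figure D3:**
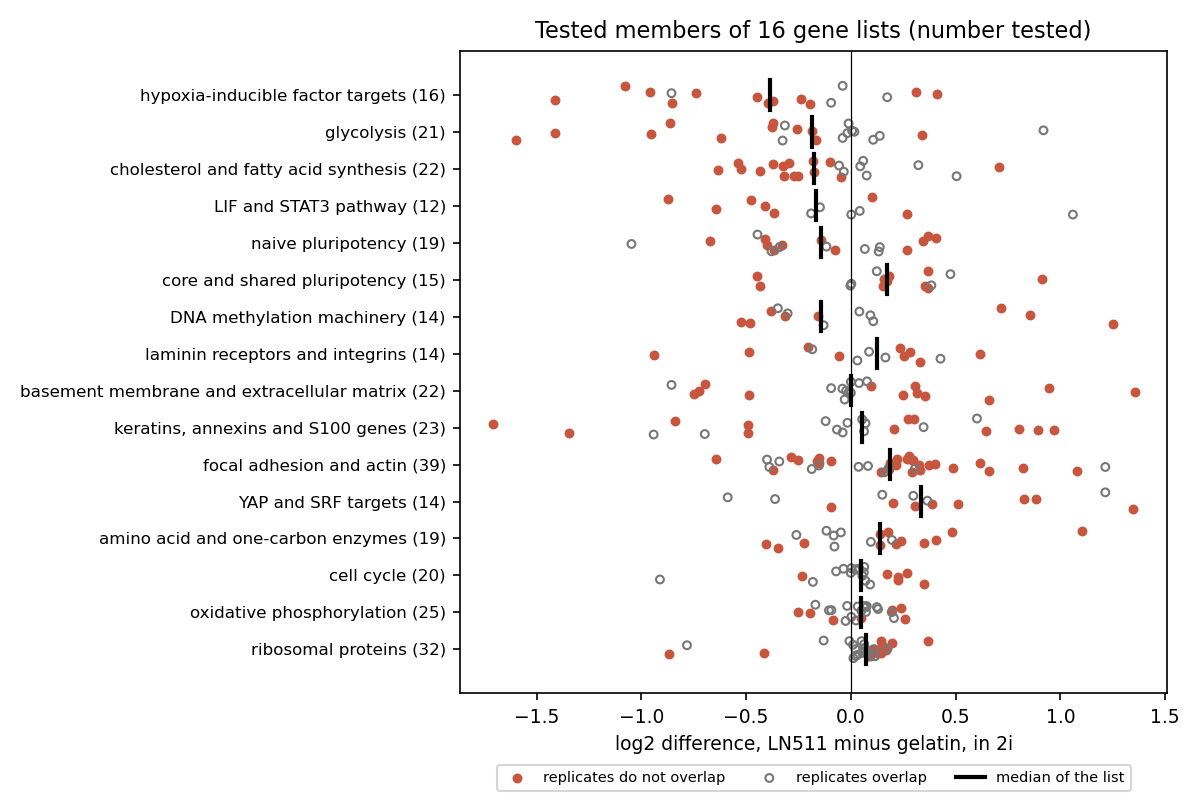
Log2 difference LN511 minus gelatin in 2i (horizontal axis) of each tested member of 16 gene lists (rows, with the number tested). Filled points are genes whose replicates do not overlap between coatings, open points genes whose replicates do, and the bar is the list median, which runs from -0.38 for HIF targets to 0.34 for YAP and SRF targets.

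The pluripotency factors Pou5f1, Sox2 and Nanog were held within 1.5-fold. Of 15 core and shared pluripotency genes, 8 were higher on LN511 and 2 lower without overlap (22.2% and 20.7% of all genes), 6 were held within 1.5-fold (21.8% of all genes), and the median was 0.17. Pou5f1, the gene of OCT4, was at 1035 and 1083 FPKM on gelatin and 1109.8 and 1245 FPKM on LN511, with a 95% interval of -0.02 to 0.33 on the log2 scale, and Sox2 was at 160.2 and 148 FPKM on gelatin and 174 and 170.3 FPKM on LN511 (-0.02 to 0.34). Nanog was at 446 and 455 FPKM on gelatin and 550.2 and 614 FPKM on LN511, higher in both LN511 libraries, and its interval of 0.15 to 0.58 ended at the edge of 1.5-fold. Trim28, a co-repressor that silences endogenous retroviruses, was the member past 1.5-fold without overlap, at 344 and 466 FPKM on gelatin and 738 and 771 FPKM on LN511 (log2 0.91, SE 0.14, adjusted p = 0.0843). Lin28a and Tdgf1, the latter the Nodal co-receptor Cripto, were lower, with log2 differences of -0.45 and -0.44.

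Among 19 tested naive pluripotency genes, 4 were higher and 7 lower without overlap (22.2% and 20.7% of all genes), 6 were held within 1.5-fold (21.8% of all genes), and the median was -0.14. Klf2, a factor that sustains naive cells, was at 116 and 105 FPKM on gelatin and 108 and 136 FPKM on LN511, and its relative Klf4 was at 96.3 and 91.8 FPKM on gelatin and 112 and 114 FPKM on LN511. Tdh, the threonine dehydrogenase on which mouse embryonic stem cells depend, was at 353 and 318 FPKM on gelatin and 299 and 318 FPKM on LN511. These 3 were held within 1.5-fold. Esrrb was at 92.1 and 161 FPKM on gelatin and 80.6 and 98.9 FPKM on LN511 with overlap, and its interval of -1.16 to 0.26 does not fix a direction. Tfcp2l1 was at 147 and 146 FPKM on gelatin and 135 and 94.4 FPKM on LN511, and Klf5 at 31.2 and 30.2 FPKM on gelatin and 24.2 and 21.9 FPKM on LN511. Zfp42, also named Rex1, was at 48 and 54.6 FPKM on gelatin and 71.5 and 59.5 FPKM on LN511, and Prdm14, a repressor of DNA methylation in naive cells, at 17.2 and 11.3 FPKM on gelatin and 16.3 and 14.7 FPKM on LN511. Tcl1, an AKT co-activator, had the largest non-overlapping difference, at 40.5 and 31.2 FPKM on gelatin and 22.3 and 21.6 FPKM on LN511 (log2 -0.67). Dppa3 and Dppa5a were not analysed here.

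**Figure D4:**
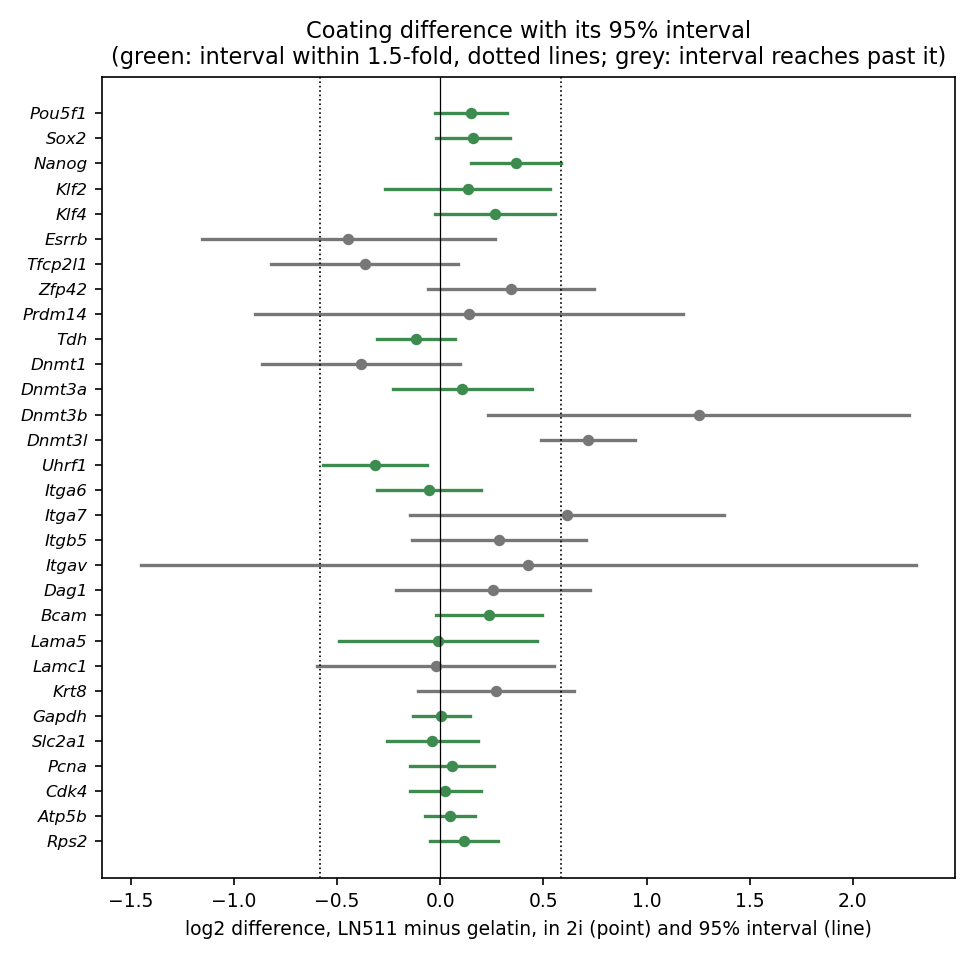
Log2 difference LN511 minus gelatin in 2i (point) with its 95% interval from limma (line) for 30 genes of pluripotency, DNA methylation, laminin binding and basic functions. Intervals in green lie within 1.5-fold (dotted lines), as for Pou5f1 and Itga6, and those in grey reach past it, as for Esrrb and Dnmt3b.

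Signalling targets were mixed. LIF keeps mouse embryonic stem cells undifferentiated through STAT3. Of 12 tested genes of that pathway, 5 were lower on LN511 and 2 higher without overlap, against 20.7% and 22.2% of all genes, with a median of -0.17. Socs3, the feedback inhibitor that STAT3 induces, was at 57.1 and 45.2 FPKM on gelatin and 22.7 and 32.9 FPKM on LN511 (log2 -0.87, adjusted p = 0.223). Pim1, a STAT3-induced kinase, was at 35.9 and 57.3 FPKM on gelatin and 30.1 and 27.3 FPKM on LN511, and Stat3 itself at 24.1 and 23.2 FPKM on gelatin and 18.1 and 16.9 FPKM on LN511. Gelatin was the higher coating in these 3. Pim2 was held within 1.5-fold, at 6.96 and 7.86 FPKM on gelatin and 7.03 and 7.81 FPKM on LN511. Lifr, the receptor chain, had overlapping replicates (log2 1.06).

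BMP and Id genes were more often lower on LN511 than higher, while the balance of Nodal genes rested on single libraries. Of 12 BMP and Id genes, 7 were lower and 1, Id2, higher without overlap, against 20.7% and 22.2% of all genes (median -0.16, with a range of -0.41 to -0.09). Of 10 tested Nodal pathway genes, 4 were lower and 1 higher (median -0.36, with a range of -0.65 to -0.04). Leaving out gelatin replicate 2 gave 4 lower and 4 higher Nodal genes, leaving out LN511 replicate 2 gave 4 and 3, and the median without genes that hold a 0 was -0.06. Lefty2, a Nodal antagonist that Nodal induces, was at 34.9 and 53.2 FPKM on gelatin and 15.4 and 16.4 FPKM on LN511 (log2 -1.39, SE 0.46). Its relative Lefty1 was at 7.24 and 5.64 FPKM on gelatin and 1.12 and 0 FPKM on LN511, so a value of 0 enters its log2 difference of -2.34. Id1, a direct BMP target, was at 12.4 and 12.6 FPKM on gelatin and 4.35 and 6.10 FPKM on LN511 (log2 -1.13), and Id3, its relative, at 35.9 and 42.2 FPKM on gelatin and 25.2 and 19.6 FPKM on LN511 (log2 -0.78). Id1 and Id3 were high on gelatin in both libraries, whereas Id2, of the same family, was high on LN511.

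Of 16 tested ERK feedback and target genes, 5 were higher and 5 lower without overlap, against 22.2% and 20.7% of all genes (median 0.07). Etv5 stood at one end and Spry4, a feedback inhibitor of the pathway, at the other, at 3.95 and 3.79 FPKM on gelatin and 1.37 and 1.72 FPKM on LN511. Dusp6, the ERK phosphatase, was at 1.43 and 1.54 FPKM on gelatin and 2.78 and 1.52 FPKM on LN511, with overlap. Of 10 Wnt and beta-catenin targets, 4 were higher and 3 lower (median -0.12, of either sign over the settings). Axin2, the feedback target of that pathway, was at 3.11 and 4.85 FPKM on gelatin and 8.66 and 5.63 FPKM on LN511, and Cdx1 at 48.4 and 42.3 FPKM on gelatin and 33.98 and 38.9 FPKM on LN511.

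Of 14 tested genes of the DNA methylation machinery, 3 were higher on LN511 and 5 lower without overlap (22.2% and 20.7% of all genes), 3 were held within 1.5-fold (21.8% of all genes), and the median was -0.14. Dnmt3b, a de novo methyltransferase that 2i medium keeps low, was at 14.6 and 25.6 FPKM on gelatin and 48.5 and 46.5 FPKM on LN511 (log2 1.25, SE 0.43, adjusted p = 0.331, 9 transcripts summed). Dnmt3l, the catalytically inactive partner of those enzymes, was at 152 and 129 FPKM on gelatin and 227 and 236 FPKM on LN511 (log2 0.72, SE 0.10, adjusted p = 0.0657). Mbd2, a reader of methylated DNA, was at 7.03 and 9.32 FPKM on gelatin and 14.3 and 16.7 FPKM on LN511 (log2 0.85). Both LN511 libraries were the high ones in these 3.

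Dnmt3a, the other de novo enzyme, was low on both coatings, at 4.41 and 4.68 FPKM on gelatin and 5.58 and 4.42 FPKM on LN511, and was held within 1.5-fold. On the maintenance side, Dnmt1 was at 84.5 and 80.3 FPKM on gelatin and 80.04 and 49.5 FPKM on LN511, and Uhrf1, which brings it to replicating DNA, at 248 and 262 FPKM on gelatin and 209 and 201 FPKM on LN511, lower without overlap but within 1.5-fold (-0.57 to -0.06). Tet1 and Tet2, which oxidise methylcytosine, were set aside for zeros. Of 10 tested genes of Polycomb repressive complex 2, 3 were higher and 3 lower without overlap, against 22.2% and 20.7% of all genes (median -0.30). The core subunits Eed and Suz12 were held within 1.5-fold, and Ezh2, the methyltransferase, had overlapping replicates (log2 -0.51). DNA methylation itself was not measured.

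Genes of the 2-cell-like state, a rare and passing state in embryonic stem cell cultures, had a median of 0.97, with a range of 0.45 to 1.35 over the alternative settings. Of 9 tested, 6 were higher on LN511 without overlap and none was lower, against 22.2% and 20.7% of all genes. A low gene can pass the filter through the 2 libraries of the coating where it is high. With no filter set, 8 of 14 were higher and 1 was lower, with a median of 0.65. Of the 9 tested, 3 held a 0 in a library in 2i, and of the other 6, 5 were higher and 0 lower. The filter at 5 FPKM left 2 of the 9, with the median of 0.45. Levels were low: Zscan4c was at 1.88 and 2.03 FPKM on gelatin and 6.30 and 3.70 FPKM on LN511, and Zscan4f at 2.23 and 3.93 FPKM on gelatin and 5.39 and 6.68 FPKM on LN511. None passed (limma adjusted p = 0.298 for Zscan4c), these are families of near-identical copies among which reads cannot be assigned with certainty, and the members of the family are not independent of one another.

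Most tested genes of the basic machinery of the cell were held within 1.5-fold. Of 25 tested oxidative phosphorylation genes, 24 were held within 1.5-fold, against 21.8% of all genes, as were 29 of 32 ribosomal protein genes and 16 of 20 cell cycle genes. Such genes are abundant and so have narrow intervals. Medians were 0.05, 0.07 and 0.05, the first 2 of either sign over the settings. Without overlap, 4 oxidative phosphorylation genes were higher on LN511 and 3 lower. The same counts were 10 and 2 for ribosomal protein genes and 5 and 1 for cell cycle genes, against 22.2% and 20.7% of all genes. Atp5b, a subunit of ATP synthase, was at 1154 and 1182 FPKM on gelatin and 1187 and 1228 FPKM on LN511. Pcna, the replication clamp, was at 429 and 454 FPKM on gelatin and 425 and 495 FPKM on LN511, and Cdk4, a kinase of the G1 phase, at 382 and 370.1 FPKM on gelatin and 363 and 403 FPKM on LN511. Rps24 was the ribosomal gene with the largest non-overlapping difference (log2 -0.87). Of 19 genes of amino acid and one-carbon enzymes, 13 were held within 1.5-fold (median 0.14). In that list 9 were higher and 3 lower without overlap, against 22.2% and 20.7% of all genes. Beside Gldc, Phgdh, which opens serine synthesis, was at 86.7 and 90.9 FPKM on gelatin and 117 and 132 FPKM on LN511 (log2 0.48).

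In Std medium the same coatings differed in more genes: limma called 215 (2.09%), against 2 in 2i. That count does not show which genes differ between media. The interaction, which tests the difference itself, called 19 genes (0.185%), with 1255 at an unadjusted p under 0.05. Keratins, annexins and S100 genes show the contrast. Of 23 tested members, 9 were called in Std, where the median was 1.34, and none in 2i. In 2i, 7 were higher and 5 lower without overlap, against 22.2% and 20.7% of all genes. The median in 2i was 0.05, of either sign over the settings. Krt8, a keratin of simple epithelia, was at 9.51 and 11.9 FPKM on gelatin and 12.5 and 13.6 FPKM on LN511 in 2i (log2 0.27, 95% interval -0.11 to 0.65) and at 4.77 and 5.19 FPKM on gelatin and 87.3 and 93.4 FPKM on LN511 in Std (interaction: limma adjusted p = 0.0115). Its partner Krt18 was at 4.52 and 3.66 FPKM on gelatin and 5.76 and 10.6 FPKM on LN511 in 2i, where the interaction missed the threshold (limma adjusted p = 0.13). Sfn, the 14-3-3 sigma gene of epithelia, and Lgals1, galectin 1, were held within 1.5-fold in 2i, with log2 differences of 0.07 and 0.05, and differed by 2.39 and 2.13 in Std.

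Some genes differed in the same direction in both media. Of 166 genes that differed at least 2-fold in 2i without overlap, averaging at least 5 FPKM on the higher coating and with no 0, 77 were higher on LN511 and 89 lower. Of the 77, 26 were also higher in Std without overlap (33.8%, against 28.8% of all tested genes), and of the 89, 27 were also lower (30.3%, against 20.8%). The opposite direction in Std was seen in 13 of the 77, against 20.8% of all tested genes, and in 20 of the 89, against 28.8%. The shares of all tested genes include lower genes and genes with a 0, so they are not a like comparison. The 2 media share no libraries in this count. Id2 was at 5.06 and 8.74 FPKM on gelatin and 46 and 40.3 FPKM on LN511 in Std, and Neat1 at 38.9 and 45.2 and 14 and 15.2 FPKM. Ddit4 was at 189 and 178 FPKM on gelatin and 68.5 and 71 FPKM on LN511 in Std (log2 -1.38), and Bex1, Tpm4 and Ddah1 had log2 differences of 1.07, 1.09 and 2.03 there. In each of these the direction was that seen in 2i. Pdk1 had a log2 difference of -0.20 in Std and Gldc one of -0.33, but neither interaction passed (limma adjusted p = 0.139 and 0.0522).

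**Figure D5:**
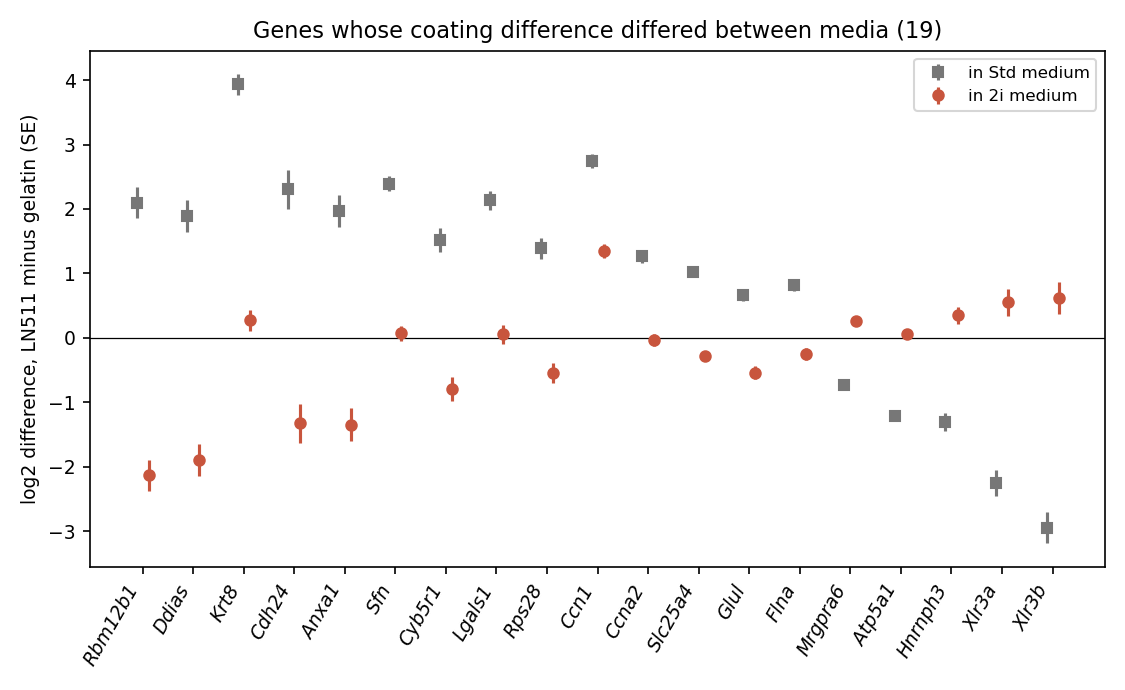
Log2 difference LN511 minus gelatin, with its SE, in Std medium (grey squares) and in 2i medium (red circles) for the 19 genes whose interaction of coating and medium passed (limma adjusted p under 0.05). Krt8, Sfn and Lgals1 stand far from 0 in Std and near 0 in 2i, and Ccn1 is above 0 in both.

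In the remaining lists, the medians of junction, stress, germline, imprinted, trophoblast, neuroectoderm and fibroblast genes had either sign over the alternative settings. Over all tested genes, 22.2% were higher on LN511 and 20.7% lower without overlap, and the counts below are to be read beside these shares. Counts of higher and lower genes without overlap in 2i were 5 and 2 of 15 formative and primed genes (median 0.11), 4 and 6 of 25 cell-cell junction genes (0.02), 8 and 4 of 20 p53 targets and apoptosis genes (0.04), and 8 and 4 of 19 stress and immediate response genes (0.05). They were 4 and 2 of 16 germline genes (-0.06) and 5 and 5 of 17 imprinted genes (0.19). Among markers of other cell types they were 3 and 0 of 5 for primitive endoderm (0.55, and 0.05 over the 14 with a value when no filter was set), 4 and 4 of 13 for trophoblast (-0.02), 0 and 2 of 4 for mesendoderm (-0.34), 1 and 2 of 5 for neuroectoderm (-0.02), and 0 and 1 of 5 for fibroblasts (0.02). Foxd3, a formative factor also found in naive cells, was at 9.55 and 8.49 FPKM on gelatin and 16.4 and 22.4 FPKM on LN511, and Eomes, a marker of trophoblast and mesendoderm, at 5.80 and 4.87 FPKM on gelatin and 1.66 and 2.18 FPKM on LN511. The summed mesendoderm markers were 11.4 and 9.60 FPKM on gelatin and 5.13 and 5.75 FPKM on LN511, and the part of such cells in the results was not tested.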

How the data were processed

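RNA-seq was made from 8 cultures of Bruce 4 mouse embryonic stem cells, 2 for each combination of coating and medium. Samples were grouped by title. The authors deposited FPKM values for genes and for transcripts, 1 column per library. TopHat2 2.1.1, Cufflinks 2.1.1 and the mm10 genome were used, per the submitters' processing notes, which give no roles or settings. Strandedness, annotation and any scaling across libraries are not given in what was used here, and the files hold no read counts.

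Gene values were summed from the deposited FPKM of RefSeq transcripts, because the deposited gene table lists at 0 47.1% of the values that the transcripts put at 1 FPKM or more. Of 32688 RefSeq rows, 32340 could be given a symbol from RefSeq's gene list of GRCm38.p6, which is mm10. The 21844 rows of assembled transcripts were left out, and their reads with them. Genes with at least 1 FPKM in 2 libraries were kept, those with doubtful zeros were set aside, and 10292 were tested.

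The test was moderated in limma 3.58.1 (R 4.3.3), using a linear model, contrasts and a mean-variance trend on log2(FPKM + 1), with 1 mean per group, all 8 libraries and 4 residual degrees of freedom, checked first on simulated data. A gene was called where its p, adjusted by Benjamini-Hochberg, fell under 0.05. Lists were described by counts and medians, with no set test. The members and lists were chosen with earlier results of these data known.

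Named genes were the 20 highest and 20 lowest differences without overlap and with 5 FPKM or more in the higher group, called genes, the largest differences and the most abundant held genes of each list, a fixed panel, the extremes of the interaction and genes set aside. The genes next in order of p, the remaining genes whose interaction passed, a ranking without zeros, and other list members were named after their values were seen. Replicate numbers did not pair the samples: deviations of same-numbered libraries correlated at -0.0204 to 0.0182. Alternatives were another pseudocount, other filters, other scalings, the gene table, a fit to 2i alone, eBayes without trend, a replicate block and leaving out each library.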

Additional observations from a re-analysis of the deposited data

Results flagged for a closer look

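The coating difference differed between the media by the interaction term of limma (adjusted p under 0.05) in 19 genes, and in 15 of them the coatings did not overlap in 2i. Values are the log2 difference in 2i minus that in Std. They were 3.57 for Xlr3b, 2.81 for Xlr3a, 1.65 for Hnrnph3 and 0.98 for Mrgpra6, 4 genes higher on LN511 in 2i and lower in Std. Xlr3a and Xlr3b are near-identical X-linked genes among which reads cannot be assigned with certainty.

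Another 9 genes were lower on LN511 in 2i and higher in Std. Their values were -4.23 for Rbm12b1, -3.79 for Ddias, -3.64 for Cdh24, -3.31 for Anxa1, -2.32 for Cyb5r1, -1.94 for Rps28, -1.30 for Slc25a4, -1.21 for Glul and -1.07 for Flna. In 2i, Rbm12b1 was called with no filter but not once genes with a 0 in a 2i library were left out. A 0 may therefore enter its value. Krt8 at -3.66 and Ccn1 at -1.39 were higher on LN511 in both media, by more in Std. The coatings overlapped in 2i in the remaining 4 genes, with values of -2.32 for Sfn, -2.08 for Lgals1, -1.30 for Ccna2 and 1.28 for Atp5a1. Leaving out any 1 library cut the number of genes with such an interaction from 19 to between 0 and 11.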

How the results depend on the processing

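No named gene that was called changed direction under any alternative that gave it a value. The count of 2 called genes was 0 with a pseudocount of 0.1, in the fit to 2i alone and with the replicate block, 8 without the eBayes trend, 15 with no filter, 17 with a filter at 5 FPKM, 42 with doubtful zeros kept and 54 in the gene table, and 0 to 12 with 1 library left out. After seeing the data, leaving out genes with a 0 gave 12, and genes with 1 RefSeq row gave 15.

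Non-overlapping genes past 1.5-fold numbered 764 with the 5 FPKM filter and 500 in the gene table, against 1367, and 1367 to 2233 with 1 library left out. Past 2-fold they were 970 with the smaller pseudocount, 236 with that filter, 289 in the gene table and 208 without zeros, against 503 (503 to 889 with 1 library left out). Past 4-fold they were 453, 31, 186 with doubtful zeros kept, and 7 without zeros, against 58 (58 to 129). A lone library cannot show its own spread, which raises counts of that kind. Genes held within 1.5-fold numbered 5231 with no filter and 237 in the gene table, against 2244 (1423 to 2222).

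Interaction calls were 29 with no filter, 53 with doubtful zeros kept, 65 in the gene table, 29 without zeros and 32 for genes with 1 RefSeq row, against 19 (0 to 11 with 1 library left out). In Std the calls were 135 in the gene table, against 215 (9 to 199). The replicate block, which the numbers do not support, gave 0 calls in 2i, 1 interaction and 80 calls in Std. Beyond what is said of filters, the cause of these shifts was not tested. The gene table gave no value for genes it lists at 0.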

Other observations

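Some genes set aside for zeros differed between coatings as whole groups. Atp5pb, a subunit of ATP synthase, was listed at 0 in both gelatin libraries and at 177 and 176 FPKM on LN511 in 2i. Nasp, a histone chaperone, was listed at 0 on gelatin and at 140.1 and 229.7 FPKM on LN511, and it was also listed at 0 in all 4 libraries in Std. Ndufa13, a subunit of respiratory complex I, was at 47.7 and 69.7 FPKM on gelatin and listed at 0 on LN511. Ass1, which makes argininosuccinate, was at 24.7 and 27.9 FPKM on gelatin and listed at 0 on LN511. As widely used genes are among them, a 0 may be a failed estimate, and no fold is given.

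A few other genes were chosen after their values were seen. H2-Eb1, a class II histocompatibility gene, was at 1.45 and 5.24 FPKM on gelatin and 12.7 and 13.5 FPKM on LN511. Apela, the gene of a small peptide hormone of early embryos and embryonic stem cells, was at 28.0 and 38.7 FPKM on gelatin and 12.1 and 13.9 FPKM on LN511 (limma adjusted p = 0.0657). Neither passed the test.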
